A study of Drosophila melanogaster with 22 samples.

Results

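The production of neuropeptides was followed in a set of 8 genes through 22 RNA-seq libraries of cells sorted from the brains of Drosophila larvae. These are the processing genes amon, 7B2, IA-2, Phm and svr, the regulator dimm, and the peptide precursors Akh and Fmrf, 8 of the 15339 genes in the deposited count and TPM tables, and each was taken by its exact symbol. They were chosen with earlier results of these data known, among them the levels in neurons, glia and pooled neuroblasts. Those levels are therefore given as a description without a test, and tests are kept for the contrasts between separate neuroblast lineages and between handling groups and for other genes of the same pathway.

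A robotic sorter collected cells with a GFP label from dissociated larval brains in small pools, and the study asked how neuroblasts of different lineages differ from each other and from neurons and glia. There are 3 libraries each of neuroblasts pooled over lineages and of neuroblasts from the mushroom body, the antennal lobe and the type II lineages, all from larvae 50 h after hatching. Mushroom body neuroblasts of that age were also taken with a 2 h wait and with 3 washes, in 3 libraries each. Neurons and glia have 2 libraries each and came from wandering larvae, so age and cell type cannot be told apart in any comparison of neurons or glia with neuroblasts. Genotypes, the driver lines behind the GFP label and the kind of neuron sorted were not stated in the labels. Whether replicates were prepared separately is not stated either, so p-values measure the spread between these libraries only.

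A neuropeptide is made as a larger precursor that enters the secretory pathway and is cut and trimmed inside dense core granules before release. The prohormone convertase cuts at pairs of basic residues, a carboxypeptidase removes those residues from the new end, and the amidating enzymes turn a terminal glycine into the amide that many fly peptides need for activity. In the fly the basic helix-loop-helix factor Dimmed raises the whole secretory programme in strongly peptidergic cells, while each cell makes only its own few peptides.

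Each library came from 47 to 124 cells, and gene counts per library ran from 3150371 to 14282246. The neuron libraries came from 120 and 74 cells, with 4364364 and 7130312 counts. Summed TPM (a level corrected for gene length and for the size of the library) of 5 neuronal markers was 3406 to 4237 in neurons, 66.4 to 88.5 in glia and 34.7 to 114 in the neuroblast libraries. In neurons the 5 neuroblast markers summed to 3.07 to 8.45 TPM, with ase at 0, and 6 glial markers to 209 to 252 TPM, against 1782 to 2422 TPM in glia. Log CPM of replicates correlated across genes at 0.851 in neurons, 0.832 in glia and 0.938 to 0.968 in the neuroblast groups.

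The convertase gene divided the cell types sharply. The gene amon encodes the fly's prohormone convertase 2 and lies on chromosome 3R, 22523418 to 22539881 in dm3, on the minus strand. It stood at 165 and 461 TPM in the neuron libraries, from 1099 and 4469 counts. Pooled neuroblasts, type II neuroblasts and glia had no count of it in any library, and the highest of the 18 neuroblast libraries was at 1.36 TPM. The neuron libraries therefore did not overlap with any other library, and how many of all genes separate in this way was not counted. With the other group set at 3 counts over its libraries, amon was at least 3885-fold higher in neurons than in pooled neuroblasts and at least 2211-fold higher than in glia. In bulk libraries like these, fewer cells of a type and less RNA per cell cannot be told apart.

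The gene 7B2 (chromosome 3R, 1202476 to 1203701, plus strand) encodes the small chaperone that prohormone convertase 2 needs in order to mature. Its 2 neuron libraries were nearly equal in TPM, at 1078 and 1095, although those of amon differed 2.80-fold. In CPM 7B2 stood at 586 and 446 and amon at 304 and 637, so the near equality of 7B2 holds for TPM only. The genes CR41602 and CR40677 together held 31.9% and 11.8% of gene counts in neuron replicates 1 and 2. Glia had no count of 7B2, and the pooled neuroblasts stood at 5.48, 3.45 and 2.10 TPM. Across the 18 neuroblast libraries 7B2 ranged from 0 to 6.92 TPM with a median of 1.64, and 15 of them had a count. Low levels of the chaperone were thus read in most neuroblast libraries, while amon had a count in 7 of them. The mean level in neurons was 295 times that in pooled neuroblasts and at least 2084 times that in glia.

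The gene IA-2 (chromosome 2L, 1011421 to 1034582, minus strand) encodes a protein of the dense core granule membrane related to tyrosine phosphatases, known in mammals as an autoantigen of islet cells. It was the most abundant of the processing genes, at 1897 and 3966 TPM in neurons, ranks 29 and 7 of all genes in those libraries. Glia read 15.0 and 1.51 TPM, and every neuroblast library had a count, from 0.105 to 5.55 TPM. Mean levels in neurons were 1293 times those of pooled neuroblasts and 356 times those of glia. The lower glial library lay within the range of the neuroblasts and the higher one above it, so glia and neuroblasts overlapped. The gene CG4375 lies inside IA-2 on the same strand, with 133 counts in neurons beside the 131418 of IA-2.

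The hydroxylase and carboxypeptidase genes Phm and svr were read in neurons, glia and neuroblasts alike. Phm (chromosome 2R, 19872855 to 19875990, minus strand) encodes the hydroxylase that begins amidation, and it read 153 and 283 TPM in neurons. Glia stood at 173 and 75.9 TPM and pooled neuroblasts at 50.4, 38.4 and 34.0 TPM. Neurons and glia overlapped, and both lay above every pooled neuroblast library, at 5.32 and 3.03 times its mean. The gene CG30178 overlaps Phm on the other strand, with 16 counts in neurons beside 1474 of Phm, and the labels do not give the strand setting of the counting.

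The gene svr (silver; chromosome X, 394878 to 402467, plus strand) encodes the carboxypeptidase that trims the cut ends. It was at 106 and 247 TPM in neurons, 132 and 126 TPM in glia, and 50.0, 41.6 and 56.3 TPM in pooled neuroblasts. Its mean in neurons was 3.58 times that in pooled neuroblasts and 1.37 times that in glia, and the glial libraries lay between the neuron libraries. These ratios depend on reading levels as a share of a library. Scaled to the ERCC spike-in per cell, svr in pooled neuroblasts was at 0.980 ± 0.112 of the neuron mean (SD, n = 3) and in glia at 0.262 ± 0.0390 (SD, n = 2). Phm on that scale was at 0.649 ± 0.183 in pooled neuroblasts and 0.189 ± 0.0735 in glia. By contrast amon, 7B2 and IA-2 stayed at or below 0.0109 of the neuron mean in pooled neuroblasts and in glia on the spike-in scale.

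**Figure D1:**
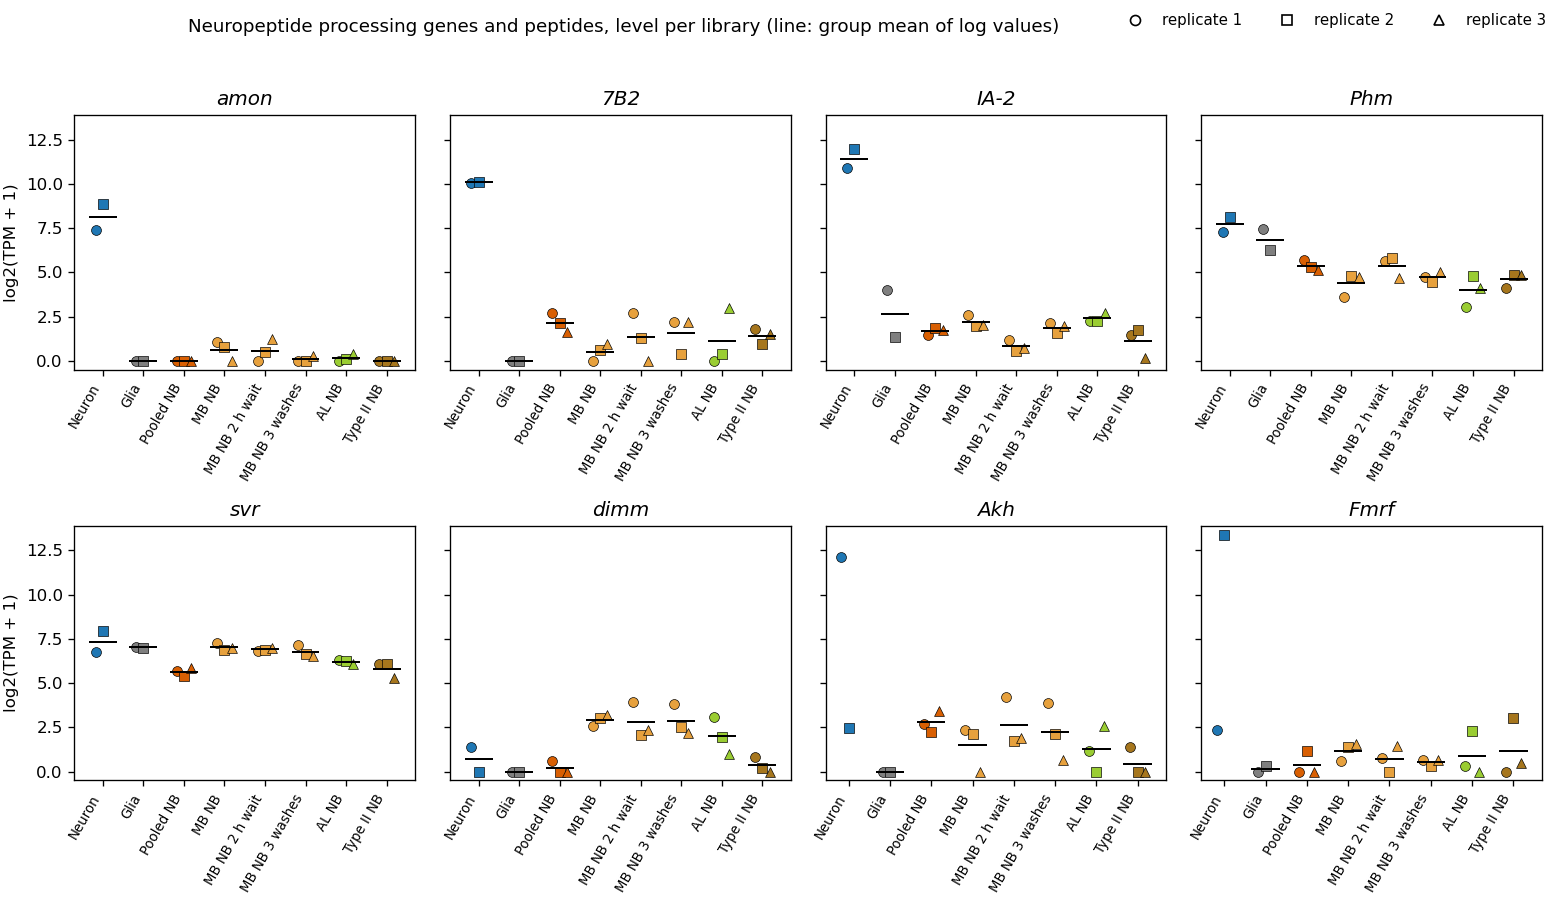
Levels of the 8 genes as log2(TPM + 1) in each of 22 libraries, grouped by cell type; NB is neuroblast, MB mushroom body and AL antennal lobe, symbols mark the replicate number and lines the mean of the log values, left out for Akh and Fmrf in neurons. The genes amon, 7B2 and IA-2 were high in both neuron libraries, and Akh and Fmrf in a single one each. Phm and svr were read in every group, and dimm reached at most 14.1 TPM, in a mushroom body library.

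The regulator was not high in neurons as the enzyme genes were, and its counts there were few. The gene dimm (chromosome 2L, 21339068 to 21340542, plus strand) had 9 counts in neuron replicate 1 (1.63 TPM), none in neuron replicate 2 and none in either glial library. Mushroom body neuroblasts read 4.95, 7.16 and 8.21 TPM and antennal lobe neuroblasts 7.35, 2.81 and 1.01 TPM. Pooled neuroblasts were at 0.534, 0 and 0 TPM and type II neuroblasts at 0.772, 0.166 and 0 TPM. Every mushroom body library, in all 3 handling groups, was thus above both neuron libraries, while the antennal lobe libraries overlapped with the neurons.

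The peptide precursors divided the neuron libraries. Akh (chromosome 3L, 4141467 to 4142070, plus strand) encodes adipokinetic hormone, which mobilises stored sugar and fat and is made by the corpora cardiaca, an endocrine gland beside the brain. Neuron replicate 1 held it at 4428 TPM from 3970 counts, rank 4 of all genes there, and neuron replicate 2 at 4.61 TPM from 6 counts. Of all Akh TPM in neurons, 99.9% came from replicate 1. Glia had no count. Pooled neuroblasts read 5.47, 3.78 and 9.79 TPM, so replicate 2 of the neurons lay within the range of the pooled neuroblasts. The highest neuroblast library was a 2 h wait library at 17.9 TPM.

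Fmrf (chromosome 2R, 5793796 to 5797962, plus strand) encodes the precursor of the FMRFamide peptides, which act on muscle and on other neurons. Neuron replicate 2 held it at 10524 TPM from 36578 counts, rank 3 of all genes, and neuron replicate 1 at 4.18 TPM from 10 counts. Only 0.0397% of the Fmrf TPM in neurons came from replicate 1, the mirror image of Akh. Glia had a single count in all, and neuroblast libraries reached at most 7.27 TPM, in a type II library. Neuron replicate 1 lay inside that range. A mean over the 2 neuron libraries stands for neither of them in the case of Akh or Fmrf, and none is used here.

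In neuron replicate 1, 3 markers of the corpora cardiaca were at 0 TPM (gl), 13.4 TPM (CG8317, the gene of Limostatin) and 1.57 TPM (Sur). In replicate 2 they were at 19.7, 0 and 0.683 TPM. The 3 markers summed to 15.0 to 20.4 TPM in neurons, 21.4 to 29.3 TPM in glia and 0.626 to 13.4 TPM in neuroblasts, and all 3 had a count in each of those groups. Their part in the Akh level was not tested. Of 7 prothoracic gland markers 4 had a count in neurons, with phm, spok and sad at 0 and sums of 10.3 and 112 TPM. The gene tor made up 7.26 and 109 TPM of those sums.

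A search for genes at 100 CPM or more in a single neuron library and less than 0.1 of that in the other found 27 of 2035 genes at that level, or 1.33%: 11 were high in replicate 1 and 16 in replicate 2. Akh and Fmrf are among them by the way they were chosen, and the other 5 described genes at that level were not. Of 7 peptide precursor genes at 100 CPM, 3 met the rule. Dh44, a diuretic hormone of the corticotropin-releasing factor family, stood at 2335 and 13.1 TPM in replicates 1 and 2. The ion transport peptide gene itp stood at 1055 and 2.14 TPM. Pdf, the peptide of the clock neurons, went the other way, with no count in replicate 1 and 554 TPM in replicate 2.

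None of 15 processing and granule genes and none of 3 receptor genes at 100 CPM met the rule, which at these list sizes is near the 1.33% of all genes. The median difference between the neuron libraries, as an absolute log2 ratio among genes at 100 CPM, was 0.33 for processing and granule genes, 2.57 for 7 peptide precursors, 1.42 for 3 receptors and 0.53 for all genes. At a lower cutoff of 10 counts, 23 of 46 peptide precursors were detected in neurons, 11 in both libraries, 6 in replicate 1 alone and 6 in replicate 2 alone. That is 52.2% of those detected in a single library, against 12.5% for processing and granule genes, 16.2% for receptors and 30.4% for all genes. No test of these shares was made, since genes of a library are not replicates. The shares were also not matched for level. Some precursors detected in a single library lay near the cutoff, such as Ast (3.87 CPM, replicate 1) and Ilp5 (1.85 CPM, replicate 2). Of the precursors detected in a single library, only Pdf reached 100 CPM. Ilp1, an insulin-like peptide gene named after its values were seen, was at 3.86 and 219 TPM.

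**Figure D2:**
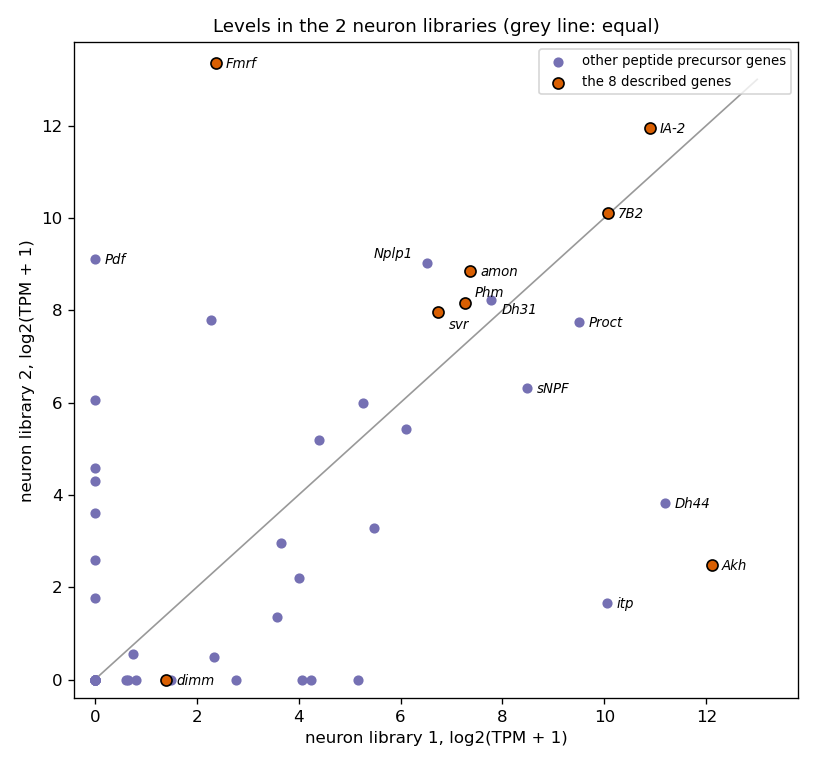
Levels in neuron replicate 1 (horizontal) and replicate 2 (vertical) as log2(TPM + 1) for the 8 described genes and 46 other peptide precursor genes, with a line of equality. IA-2, 7B2, amon, Phm and svr lie near the line, while Akh, Dh44 and itp lie far below it and Fmrf and Pdf far above.

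The pathway around the 8 genes was then tested in neurons with lists of 46 further peptide precursors, 26 processing and granule genes and 39 peptide receptors. The test was edgeR's quasi-likelihood test on counts of neurons, glia and pooled neuroblasts. A gene is called at a Benjamini-Hochberg adjusted p below 0.05 over 9855 genes. The filter on low counts used these libraries together, so a gene could enter the test through neurons alone. The comparisons of neurons with pooled neuroblasts and with glia share the neuron libraries, so they are not independent. Of all genes 24.7% were called against pooled neuroblasts, 14.5% higher and 10.2% lower in neurons. Against glia 20.1% were called, 9.37% higher and 10.8% lower. Scaled to spike-in per cell, the median change of all genes moved from -0.18 to -1.94 against pooled neuroblasts and from -0.23 to 1.52 against glia.

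Of the processing and granule genes, 16 of 26 were called higher in neurons than in pooled neuroblasts, 1 lower (QC) and 9 were not called. Their median log2 change was 3.67, beside -0.18 for all genes. Pal2, the lyase that completes the amidation begun by Phm, stood at 1006 and 1508 TPM in neurons, 19.1, 14.0 and 11.9 TPM in pooled neuroblasts and 8.29 and 0.503 TPM in glia. It was higher in neurons by 6.43 ± 0.84 log2 units than in pooled neuroblasts (SE; edgeR adjusted p = 0.000808) and by 7.93 ± 1.08 than in glia (adjusted p = 0.00179). The Pal2 libraries of neurons did not overlap with those of either other group, whereas Phm overlapped between neurons and glia. Pal1, the other lyase gene of that step, stood at 11.1 and 9.33 TPM in neurons, 13.6, 19.1 and 11.2 TPM in pooled neuroblasts and 1.06 and 12.9 TPM in glia. It was not called against pooled neuroblasts (-0.41 ± 1.14, edgeR adjusted p = 0.825) or glia (0.43 ± 1.24, adjusted p = 0.835).

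Several of the 16 genes act in the movement, docking or release of granules and vesicles. Rab3, a vesicle GTPase, read 732 and 1215 TPM in neurons against 7.08 to 10.1 TPM in pooled neuroblasts, a change of 6.92 ± 0.37 (edgeR adjusted p = 1.31e-05). The kinesin gene unc-104, which carries granules and synaptic vesicle precursors along axons, changed by 6.61 ± 0.83 (adjusted p = 0.000659). Caps, the calcium-dependent activator of granule release, rose by 2.61 ± 0.32 (adjusted p = 0.000602) and unc-13, a priming factor, by 2.41 ± 0.23 (adjusted p = 0.000132). On the spike-in scale these modest rises of Caps and unc-13 fell to 0.84 and 0.62 and lost their calls. The calcium sensors Syt4 and Syt7 rose by 10.66 and 6.08 (adjusted p = 0.000150 and 0.00172). Vmat, the vesicular monoamine transporter, read 1056 and 326 TPM in neurons and at most 0.140 TPM in pooled neuroblasts (12.94 ± 0.89, adjusted p = 3.55e-05). Rab26, another small GTPase gene of the list, was called too, at 7.07 ± 1.08 (edgeR adjusted p = 0.00188). The GTPase genes Rab27 and Rab2 were not called, at 2.79 ± 1.46 and 0.86 ± 0.63 (adjusted p = 0.194 and 0.346).

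Against glia, 12 of the 26 processing and granule genes were called higher in neurons and 4 lower, with a median of 2.02 beside -0.23 for all genes, or 3.25 and 3.33 without glia replicate 1 or 2. With spike-in scaling 14 were higher and 2 lower. Those lower in neurons were the peptidases Nep4 and Ance, the cytochrome b561 gene nemy and QC, which encodes glutaminyl cyclase, the enzyme that closes the amino end of some peptides. Neurons held no count of QC or Ance, which puts these at least 94.9-fold and 28.8-fold below their glial levels. Rab3, Syt7, Vmat, unc-104, Caps and unc-13 were called higher than in glia, and Syt4, with no count in glia, was at least 2019-fold higher. The call of unc-104 was lost in 3 of 15 alternative settings, among them the fit without neuron replicate 2 (edgeR adjusted p = 0.0528).

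Of 46 peptide precursors listed, 24 were tested, of which 6 were higher and 2 lower in neurons than in pooled neuroblasts and 16 were not called. Their median was 1.99, and with single libraries left out it ranged from 0.86 (neuron replicate 1) to 3.09 (glia replicate 1). Nplp1, a precursor of several small brain peptides, stood at 91.0 and 519 TPM against 0.666 to 1.26 TPM in pooled neuroblasts (8.14 ± 0.83, edgeR adjusted p = 0.000208). The diuretic hormone gene Dh31 stood at 219 and 296 TPM against 0 to 1.41 TPM (8.86 ± 1.26, adjusted p = 0.00196). The short neuropeptide F gene sNPF, at 355 and 78.7 TPM, had no count in pooled neuroblasts or glia and was at least 1339-fold and 762-fold higher. The myotropic pentapeptide gene Proct, at 722 and 215 TPM, rose by 8.89 ± 1.98 (adjusted p = 0.0121), with an adjusted p of 0.0576 without neuron replicate 1 and 0.0506 without pooled replicate 2.

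The rises of Dh44 (9.21 ± 2.05, edgeR adjusted p = 0.0120) and itp (6.58 ± 1.69, adjusted p = 0.0222) rested on neuron replicate 1. Without it the change of Dh44 was 2.36 and that of itp turned to -1.74, and neither was called. Both calls were also lost when 1 pooled neuroblast library was left out, whichever it was, with edgeR adjusted p of 0.0570 to 0.0702 for Dh44 and 0.0855 to 0.120 for itp. ETH and Ilp6, at 0 in neurons, were at least 19.1-fold and 8.44-fold lower than in pooled neuroblasts. Leaving out pooled neuroblast replicate 1, 2 or 3 brought the 8 calls to 5, 4 and 5.

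Against glia 4 peptide genes were higher in neurons (Nplp1, Dh31, sNPF and Gpb5) and 4 lower, with a median of 0.89. With spike-in scaling 9 were higher and 3 lower, with a median of 2.73. Without glia replicate 1 or 2 the median was 5.23 or 3.64, and 5 were higher and 3 lower. CCHa1, a peptide known from gut and brain, read 0 and 2.40 TPM in neurons and 297 and 50.5 TPM in glia (-7.34 ± 1.59, edgeR adjusted p = 0.0141, and 0.0778 without glia replicate 1). Ilp6, an insulin-like growth factor known from the surface glia and fat body, read 83.8 and 146 TPM in glia and was at least 457-fold lower in neurons. Ptth, the prothoracicotropic hormone gene, fell by 7.70 ± 2.33 (adjusted p = 0.0482), but it read 3.77 and 102 TPM in the glial libraries and its call was lost in 10 of 15 settings, among them each that left out 1 neuron library, 1 pooled library or glia replicate 2 (adjusted p of 0.0760 to 0.288). The fourth was CG34388, the natalisin gene, with no count in neurons. In itp neurons and glia could not be separated, since glia read 290 and 734 TPM beside 1055 and 2.14 TPM in neurons.

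Receptors for peptides showed the highest median of the 3 lists against pooled neuroblasts. Of 39 listed, 35 were tested, 22 were higher in neurons, none lower and 13 not called. The median log2 change was 6.19, or 5.82 with genes of no count in a group set at 3 counts. In this comparison 10 of the 35 had no count in 1 of the 2 groups, beside 1006 of 9855 genes. These receptors passed the filter through neurons or glia, so the calls and the median depend in part on the filter. With no filter on low counts 24 receptors were higher and none lower, with a median of 5.81. The receptor of the FMRFamide peptides, FR, read 25.3 and 91.4 TPM in neurons and at most 0.0870 TPM in pooled neuroblasts (9.69 ± 1.97, edgeR adjusted p = 0.00770). It was not called against glia, which read 17.1 and 0.0931 TPM. The Akh receptor gene GRHR had no count in neurons and was at 0 and 7.27 TPM in glia. The receptors sNPF-R (8.45 ± 0.86, adjusted p = 0.000203) and Dh31-R1 (8.45 ± 1.15, adjusted p = 0.00102), whose ligand genes also rose, were called against pooled neuroblasts and not against glia. Dh31-R1 read 25.1 and 139 TPM in glia beside 32.1 and 176 TPM in neurons.

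SPR, the sex peptide and myoinhibitory peptide receptor, had no count in pooled neuroblasts or glia and was at least 472-fold and 269-fold higher in neurons. TrissinR, AlstR, ETHR and CG33696 (the CNMamide receptor) were called too, with changes of 8.52 ± 1.49 for AlstR (edgeR adjusted p = 0.00371), 5.69 ± 1.25 for ETHR (0.0115) and 4.57 ± 0.98 for CG33696 (0.0100), and TrissinR at least 394-fold higher. The call of ETHR was lost without neuron replicate 2 (0.0854) or pooled replicate 1 or 3 (0.0567 and 0.0540). Against glia 12 of 35 receptors were called, all higher in neurons, with a median of 2.93, or 5.44 without glia replicate 1. The calls of AlstR, TrissinR and ETHR were lost in 5, 4 and 7 of 15 settings. Without neuron replicate 1 there were 7 such calls and without replicate 2 there were 5.

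**Figure D3:**
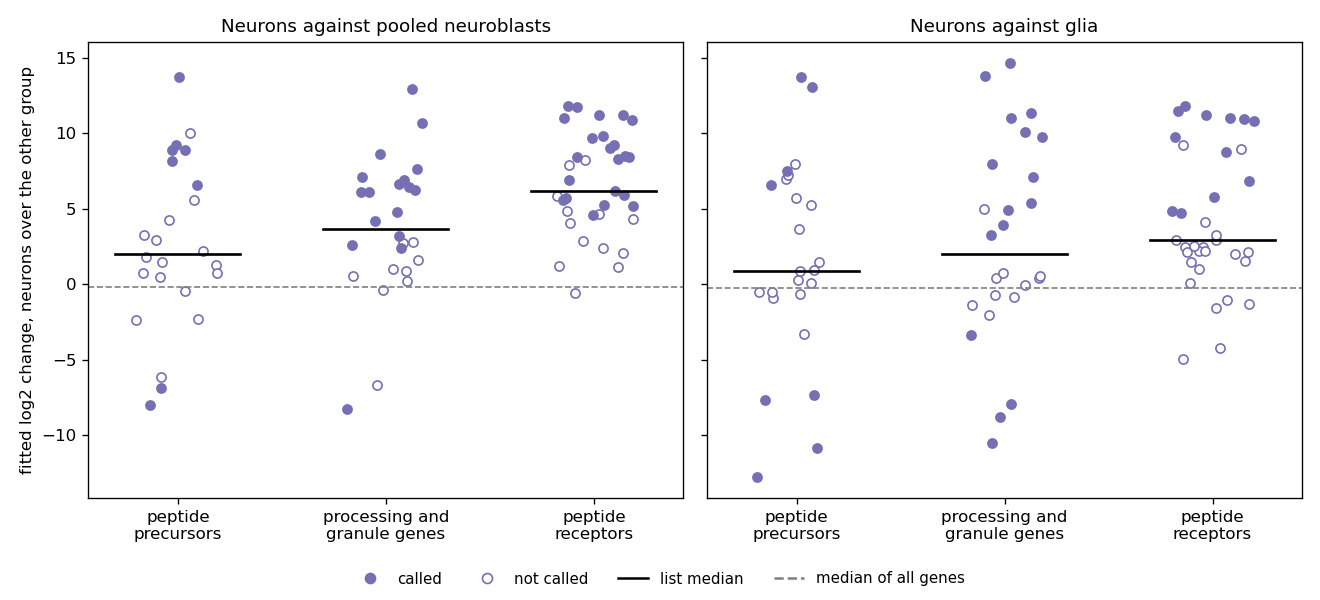
Fitted log2 change of each tested gene in 3 lists, neurons against pooled neuroblasts (left) and against glia (right); filled points were called at adjusted p below 0.05, bars are list medians and the dashed line is the median of all genes. Fitted values of genes with no count in a group depend on the prior count. List medians were 1.99, 3.67 and 6.19 on the left and 0.89, 2.02 and 2.93 on the right.

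Between glia and pooled neuroblasts 20.6% of all genes were called, 13.6% higher and 7% lower in glia. Of 26 processing and granule genes 7 were higher and 5 lower (46.2% called), and of 35 receptors 9 were higher and none lower (25.7%). Of 24 peptide precursors 4 were higher and 1 lower, and this share of 20.8% is that of all genes. The medians of processing genes, precursors and receptors were 0.75, 1.92 and 3.39, beside 0.0033 for all genes, and 0.91, 2.55 and 3.40 with genes of no count in a group set at 3 counts. With 1 glial library left out these medians were lower. Without replicate 1 they were -0.31, 0 and 0.39, beside -0.30 for all genes, and without replicate 2 they were -0.25, 0.14 and 1.67, beside -0.29. Spike-in scaling per cell moved the median of all genes to -3.45, with 3, 0 and 4 genes of the lists higher and 13, 7 and 6 lower. Less the median of all genes, the list medians on that scale were 0.66 for processing genes and 2.43 for precursors. The receptor median there was 0, the value fitted to genes with no count in glia or pooled neuroblasts. The precursor median of 0 without glia replicate 1 is such a value too, and neither gives a comparison. Leaving out pooled neuroblast replicate 1, 2 or 3 brought the 26 calls to 13, 14 and 14.

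Regulators known to set peptide cell fate in the ventral nerve cord, among them the cascade that turns on Fmrf there, were a list of 10 genes. Against pooled neuroblasts 2 were higher in neurons, 1 lower and 7 not called, beside 24.7% of all genes called, with a median of 0.81. With spike-in scaling 1 was higher and 4 lower, with a median of -1.03, and without neuron replicate 2 the median was -0.01. The type II receptor gene wit, through which a BMP signal from the target switches on Fmrf, read 18.9 and 78.8 TPM in neurons, 22.6 and 15.5 TPM in glia and 0.278 to 2.12 TPM in pooled neuroblasts (5.62 ± 1.06, edgeR adjusted p = 0.00542). The transcription factor gene kn rose by 4.18 ± 1.32 (adjusted p = 0.0488), a call lost in 10 of 15 settings, among them each that left out 1 library, glia included (adjusted p of 0.0515 to 0.201). The cofactor gene nab fell by 4.82 ± 0.64 (adjusted p = 0.000894), from 358 to 402 TPM in pooled neuroblasts to 9.20 and 16.8 TPM. Against glia kn and eya, both transcription regulators of peptidergic neurons, were higher in neurons and the BMP receptor gene tkv lower, with a median of 0.70, or 1.61 and 0.080 without glia replicate 1 or 2. With spike-in scaling 4 were higher and none lower. The calls of kn and tkv against glia were lost without neuron replicate 2 (adjusted p = 0.0733 and 0.0682), and that of kn also without glia replicate 1 or 2 (0.0681 and 0.0931).

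Among the neuroblasts the separate lineages were tested against each other, in a fit of the 12 libraries under standard handling and 9249 genes. Levels in pooled neuroblasts were known when the 8 genes were chosen, so differences from them are given as a description with no test. The genes amon, Akh and Fmrf did not pass the filter on low counts there, which leaves 5 of 8 and 15 tests over 3 contrasts. Of these, 3 were called, 2 of svr and 1 of dimm, and none of 7B2, IA-2 or Phm. Since dimm passed the filter only through the groups where it was high, its call depends in part on the filter. Of all genes 11.8% were called between mushroom body and antennal lobe, 10.4% between mushroom body and type II and 11.4% between antennal lobe and type II. Against pooled neuroblasts 14.4%, 17% and 5.92% of all genes were called in mushroom body, antennal lobe and type II neuroblasts, and 8.92%, 10% and 3.72% were higher there than in the pool.

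Mushroom body neuroblasts had the most svr, at 153, 114 and 127 TPM. Antennal lobe neuroblasts read 77.2, 76.1 and 65.8 TPM, type II neuroblasts 66.0, 66.1 and 37.5 TPM, and pooled neuroblasts 50.0, 41.6 and 56.3 TPM. The mushroom body libraries lay above all 9 others, and the type II libraries overlapped with the pooled and the antennal lobe ones. By edgeR the difference of mushroom body from type II was 1.19 ± 0.19 log2 units (SE; adjusted p = 0.000103) and from antennal lobe 0.84 ± 0.18 (adjusted p = 0.00298). The difference of antennal lobe and type II was 0.35, with a 95% interval from -0.03 to 0.72, and was not called. The fitted differences from pooled neuroblasts, as description, were 1.46 in mushroom body, 0.61 in antennal lobe and 0.27 in type II neuroblasts.

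These svr calls hold for levels as a share of each library. Scaled to spike-in per cell, neither was called, the difference from antennal lobe was 0.47 and that from type II turned to -0.35. Type II libraries varied widely on that scale, with svr from 0.888 to 4.15 of the neuron mean and ERCC counts of 6930, 16505 and 17865. The median of all genes on that scale was -1.44 between mushroom body and type II. The summed TPM of 5 neuronal markers also differed between these groups, at 34.7 to 47.9 in pooled, 61.4 to 69.8 in type II, 76.9 to 109 in mushroom body and 92.7 to 105 in antennal lobe neuroblasts. Its part in the svr and dimm differences was not tested.

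For dimm, whose levels are given above, mushroom body neuroblasts exceeded type II neuroblasts by 4.28 ± 1.18 log2 units (edgeR adjusted p = 0.0200), a call lost in 4 of 20 settings, with spike-in scaling (adjusted p = 0.0700) and without mushroom body replicate 3 or type II replicate 2 or 3 (0.0612, 0.0838 and 0.0743). Mushroom body and antennal lobe neuroblasts differed by 0.88, with a 95% interval from -1.14 to 2.89. Antennal lobe against type II was 3.41, with an interval from 1.03 to 5.79 and an adjusted p of 0.0576, and it was called in 8 of 20 settings. The fitted differences from pooled neuroblasts, as description, were 5.16 in mushroom body, 4.29 in antennal lobe and 0.88 in type II neuroblasts. All these rest on few counts, 111 in mushroom body, 109 in antennal lobe, 7 in type II and 6 in pooled neuroblasts over 3 libraries each. With at most 6 counts in any type II or pooled library, dimm passed the filter on low counts only through the groups where it was high.

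Phm read 7.31, 26.9 and 16.4 TPM in antennal lobe neuroblasts, all below the 3 pooled libraries, with a fitted difference of -1.24 as description. IA-2 read 3.77, 3.75 and 5.55 TPM in antennal lobe and 1.78, 2.30 and 0.105 TPM in type II neuroblasts, with no overlap. The difference of 1.61 was not called, at an edgeR adjusted p of 0.0704. How many of all genes separate as Phm and IA-2 do here was not counted. No difference of 7B2 between lineages was called, and its intervals were wide, from -5.42 to 1.05 between mushroom body and antennal lobe.

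**Figure D4:**
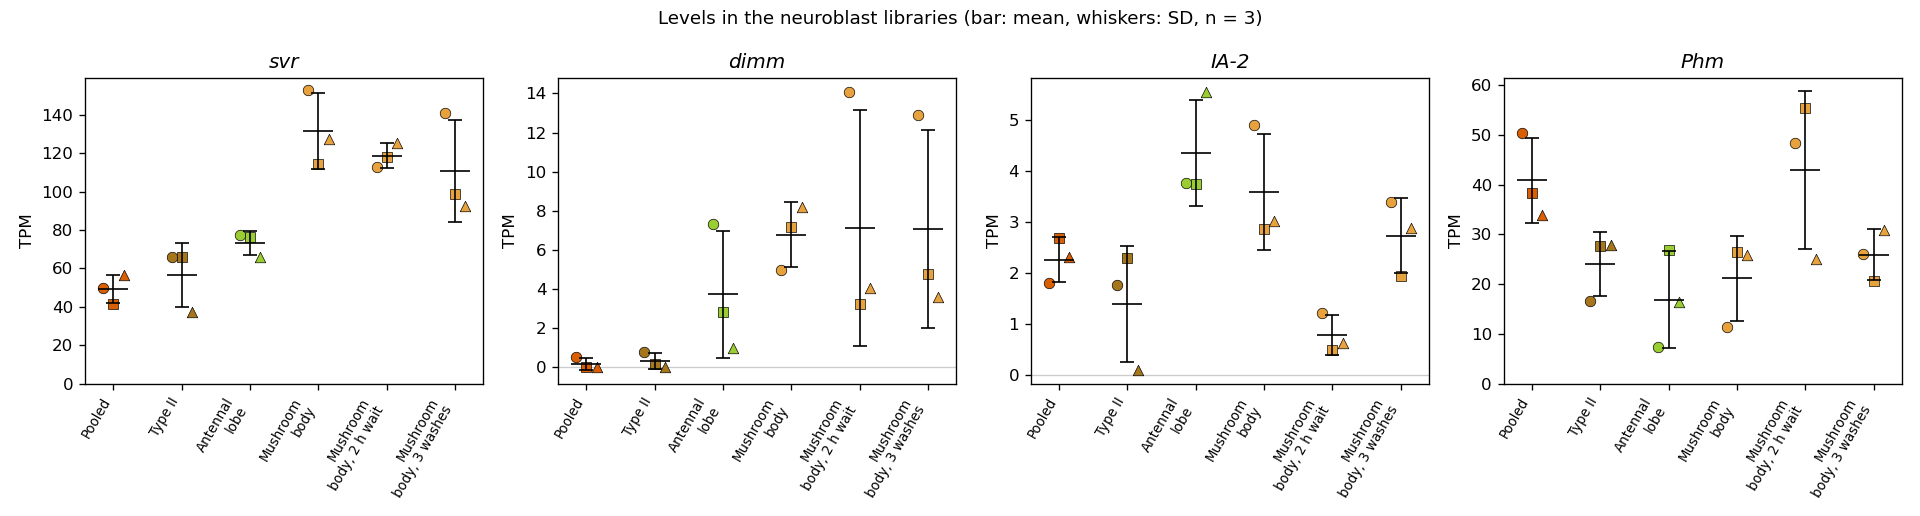
TPM of svr, dimm, IA-2 and Phm in 18 neuroblast libraries; points are libraries with symbols for replicates 1 (circle), 2 (square) and 3 (triangle), bars are means and whiskers SD, n = 3. Mushroom body libraries hold the highest svr, between 92.3 and 153 TPM over the 3 handling groups, and dimm is near 0 in pooled and type II neuroblasts.

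Handling of mushroom body neuroblasts was compared in a fit of 9 libraries, in which IA-2, Phm, svr and dimm passed the filter. None of the 12 tests was called by edgeR, 3 had an unadjusted p below 0.05, and 0.0228%, 0.833% and 0.0342% of all genes were called between wait and standard, wash and standard, and wait and wash. IA-2 was lower after the wait, at 1.23, 0.497 and 0.628 TPM, than in standard libraries at 4.91, 2.88 and 3.02 TPM or washed libraries at 3.39, 1.94 and 2.88 TPM. The wait libraries did not overlap with either, and how many of all genes separate in this way was not counted. The difference from standard was -2.17, with a 95% interval from -3.27 to -1.07 and an edgeR adjusted p of 0.155. Of 17 other settings only DESeq2 called it (adjusted p = 0.0153). Phm went the other way, at 48.3, 55.4 and 25.0 TPM after the wait against 11.4, 26.4 and 25.8 TPM (1.00, adjusted p = 0.499). For svr, at 113, 118 and 125 TPM after the wait and 141, 98.9 and 92.3 TPM after washes, the differences from standard were -0.12 (interval -0.43 to 0.19) and -0.25 (interval -0.56 to 0.06). For dimm they were 0.06 and 0.02, with intervals reaching from -1.23 to 1.31.

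The genes whose pattern was most like amon, by Pearson's r of log2(TPM + 1) over 22 libraries among 10815 genes, were CG15894 (0.992), CG34351 (0.991), the octopamine receptor gene Oamb (0.991), the cell surface gene dpr11 (0.990) and the serotonin receptor gene 5-HT1A (0.990). All 5 were high in both neuron libraries, as in Oamb at 51.5 and 132 TPM, and at or near 0 elsewhere. For Akh they were CG13085 (0.903), CG14075 (0.891), CG11106 (0.878), CR43411 (0.874) and CG44013 (0.865), each at 0 TPM in neuron replicate 2. CG14075 was the most abundant, at 784 TPM in replicate 1. For Fmrf they were CG31496 (0.967), CG4793 (0.965), CG43312 (0.958), CG43231 (0.953) and the Runt family gene RunxA (0.951), of which CG43231 was highest at 228 TPM in replicate 2. The neuron libraries, or a single one of them, set these values, so they describe shared libraries and no more.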

How the data were processed

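The authors deposited read counts per gene and a TPM table computed from them; in 2397 genes with at least 50 counts everywhere the ratio of count to TPM was constant per gene and library to within 2.83e-15 log2 units. Per the submitters' processing notes, the tools were HTSeq 0.6.1p1, STAR 2.4.0i, cutadapt 1.7.1 and Bowtie2 2.1.0, with dm3 and mm10, whose role is not stated. A PicoPure kit and Ovation amplification were used, per the labels' protocols. Entries without a gene (7.92 to 23.8% of counts outside genes, 1.03 to 1.76% ambiguous, at most 17 in a row with no name) and 92 ERCC entries stayed out of tests.

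Levels are the deposited TPM. Where libraries of groups are said not to overlap, the share of all genes that separate in this way was not counted. Tests used edgeR 4.0.16 (quasi-likelihood, robust, TMM, filterByExpr) in R 4.3.3 on the deposited counts, in separate fits of cell types, neuroblast lineages and handling groups, with biological coefficients of variation of 0.796, 0.406 and 0.415. SE is the absolute log2 change over the root of F. Alternatives used DESeq2 1.42.0, limma 3.58.1 on log2(TPM + 1) and log2(TPM + 0.1), RLE and spike-in scaling, no filter, CR41602 and CR40677 left out, and single libraries left out. The edgeR steps were tested on simulated data. The lowest chi-square per degree of freedom between replicates was 9.75, so replicates were not copies of each other. Counts limit precision, and floors of 3 counts cover counting error only. The genes and the lists were chosen with earlier results of these data known. The text names the 8 genes and, per list, up to 8 called genes in order of neuron CPM whose higher group reached a mean of 20 CPM, list genes high in a single neuron library, and the 5 genes most like amon, Akh and Fmrf among genes reaching 10 TPM. Genes named outside this rule were chosen after their values were seen (among them QC, Ance, Nep4, nemy, ETH, Ilp6, Gpb5, CG34388, Ilp1 and GRHR). No sequence is printed.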

Additional observations from a re-analysis of the deposited data

How the results depend on the processing

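Of 675 fits of the named list genes under other settings, 604 kept direction and side of the threshold, 70 lost the call and 1 turned, itp between neurons and pooled neuroblasts without neuron replicate 1 (from -1.74 there to 7.55 without neuron replicate 2). Of the 8 genes among neuroblasts, svr and IA-2 turned between mushroom body and type II with spike-in scaling (-0.35 and -0.20). Between separate lineages each of the 2 svr calls was kept in 19 of 20 settings and the dimm call in 16. Beside 0 of the 8 genes called between handling groups, DESeq2 and spike-in scaling gave 1 each. Limma on log2(TPM + 1) called 19 receptors between neurons and glia in place of 12. The cause was not tested.

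With single libraries left out, calls against pooled neuroblasts ranged from 4 to 9 peptide precursors (8 with all libraries), 14 to 18 processing genes (17) and 15 to 27 receptors (22). Against glia they ranged from 7 to 9 (8), 12 to 17 (16) and 5 to 10 (12), and between glia and pooled neuroblasts from 13 to 29 (26). Handling calls stayed at 0. Where a group was left with 1 library, that library is assumed to vary like the others.

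Deviations of same-numbered libraries correlated at -0.0258 to -0.000489 in the cell type fit. The range was -0.0683 to 0.113 among lineages and -0.0737 to 0.0656 among handling groups. These low values cannot exclude a shared preparation of same-numbered libraries. In groups of 2 libraries the deviations also mirror each other. With a replicate block the calls were 6, 13 and 14 against pooled neuroblasts and 7, 14 and 7 against glia. There were 10 between glia and pooled neuroblasts and 0 between handling groups. With 2 neuron libraries, depth and number limit what could be called.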

Other observations

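Some receptor and fate regulator genes, named here after their values were seen, were called among the neuroblast lineages. Dh44-R1, a receptor of the diuretic hormone Dh44, read 20.3, 30.1 and 25.5 TPM in mushroom body, 23.2, 38.7 and 17.1 TPM in antennal lobe, 6.93, 2.91 and 1.32 TPM in type II and 0.237 to 0.599 TPM in pooled neuroblasts. Each lineage exceeded the pooled libraries, by 5.81 ± 0.62, 5.86 ± 0.62 and 3.10 ± 0.62 log2 units (SE; edgeR adjusted p = 4.07e-07, 6.26e-07 and 0.00227). The bursicon receptor gene rk, which acts in cuticle tanning and wing expansion, exceeded pooled neuroblasts by 4.35 ± 0.88 in mushroom body and 3.58 ± 0.86 in antennal lobe neuroblasts (adjusted p = 0.00157 and 0.00604). Of 17 receptors tested against pooled neuroblasts, 2 were higher in mushroom body, 4 in antennal lobe and 1 in type II neuroblasts (11.8%, 23.5% and 5.88%), and none was lower. Of all genes 8.92%, 10% and 3.72% were called higher in these contrasts, so the mushroom body and type II shares lie near the background. Their medians were 1.27, 1.12 and -0.12, beside -0.0075, -0.0036 and -0.017 for all genes.

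Of 10 regulators that set peptide cell fate in the nerve cord, 5 were called between mushroom body and antennal lobe. In mushroom body neuroblasts 2 of these were higher and 3 lower. Between mushroom body and type II 6 were called, 3 higher and 3 lower in mushroom body. Between antennal lobe and type II 4 were called, 2 higher and 2 lower in antennal lobe. Of all genes 11.8%, 10.4% and 11.4% were called in these contrasts. One of the regulators, ap, a LIM homeodomain gene, was at 77.1, 77.6 and 85.4 TPM in mushroom body neuroblasts. It was at most 11.6 TPM in the other standard neuroblast libraries. It exceeded type II by 6.13 ± 0.57 and antennal lobe by 5.06 ± 0.52 (edgeR adjusted p = 2.56e-06 and 7.60e-06). The eyes absent gene eya was highest in type II neuroblasts, at 75.6, 93.4 and 83.9 TPM, and at most 0.599 TPM in mushroom body ones (-8.19 ± 0.95, adjusted p = 0.000218). The cofactor gene nab was lower in mushroom body neuroblasts, at 90.0, 89.6 and 59.0 TPM, than in type II at 369, 346 and 493 TPM (-2.36 ± 0.16, adjusted p = 1.68e-10).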
